A study of Mus musculus with 3 samples.

Results

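S100a8 positive neutrophil-like monocytes are monocytes that carry transcripts of neutrophil granule and alarmin genes, and they made up 1510 of the 16021 cells that passed the filters (9.43%). A cell was counted when it held at least 500 genes, at most 10% mitochondrial transcripts, at least 2 unique molecular identifiers (UMIs, each marking 1 captured transcript) of S100a8, and at least 1 UMI in 2 or more of the 4 genes Lcn2, Wfdc21, Prtn3 and Serpinb10. Cells with Arg1 at 5 or more per 10000 UMIs, with summed H2-Aa, H2-Ab1 and H2-Eb1 at 15 or more per 10000, or with 2 or more of the 5 neutrophil genes Retnlg, Cxcr2, Mmp9, Asprv1 and Stfa2l1 detected were left out. The cells were sorted as Ly6Chi monocytes from livers of male C57BL/6 mice, 8 weeks old, 24 h after 300 mg/kg acetaminophen into the peritoneum, which followed a fast of 12 h, with chow returned after 2 h. The 2 control libraries (control 1 and control 3) came from Commd10fl/fl mice, whose floxed gene was intact, and the single knockout library (knockout 4) came from LysMDCommd10 mice, in which Cre from the Lyz2 (LysM) locus deletes Commd10 in myeloid cells, neutrophils and macrophages included. All groups received acetaminophen, so no library shows the uninjured liver. How many mice gave each library is not in the labels, so the p-values below rest on a spread between libraries that may be technical.

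Ly6Chi monocytes leave the bone marrow through the chemokine receptor CCR2 and enter injured tissue, where they mature into macrophages. Some of them arise from a progenitor they share with neutrophils and keep part of its granule programme. S100a8 and S100a9 encode the subunits of calprotectin, a metal-binding alarmin, Lcn2 encodes lipocalin-2, which binds bacterial iron carriers, and Prtn3 encodes the serine protease proteinase 3 of azurophil granules. Wfdc21 encodes a small protein with a whey acidic protein domain, and Serpinb10 a serine protease inhibitor.

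The promoters of the genes that choose these cells, and of S100a9, are shown because the levels of these genes varied together or apart within the cells, as described further on. Each stretch is the 250 bases before the RefSeq transcription start on GRCm38.p6, 5′ to 3′ along the gene's strand: S100a8 at chr3:90668821-90669070 (plus strand), S100a9 at chr3:90695722-90695971 (minus strand), Lcn2 at chr2:32387740-32387989 (minus strand) and Prtn3 at chr10:79879417-79879666 (plus strand). Capitals mark matches to the C/EBP motif TTNCNNAA and the PU.1 motif GAGGAA, searched on both strands, and to TATAA, searched on the gene's strand; in S100a8 a PU.1 match and TATAA lie side by side.
S100a8: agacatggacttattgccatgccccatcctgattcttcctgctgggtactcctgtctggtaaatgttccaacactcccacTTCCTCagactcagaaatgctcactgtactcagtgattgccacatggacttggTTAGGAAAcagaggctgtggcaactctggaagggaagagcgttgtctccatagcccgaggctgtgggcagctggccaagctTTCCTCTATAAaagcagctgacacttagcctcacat
S100a9: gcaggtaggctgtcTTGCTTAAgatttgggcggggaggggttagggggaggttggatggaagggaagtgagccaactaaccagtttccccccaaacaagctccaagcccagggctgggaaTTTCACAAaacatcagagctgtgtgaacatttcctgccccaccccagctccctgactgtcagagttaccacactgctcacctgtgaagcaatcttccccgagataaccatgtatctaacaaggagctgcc
Lcn2: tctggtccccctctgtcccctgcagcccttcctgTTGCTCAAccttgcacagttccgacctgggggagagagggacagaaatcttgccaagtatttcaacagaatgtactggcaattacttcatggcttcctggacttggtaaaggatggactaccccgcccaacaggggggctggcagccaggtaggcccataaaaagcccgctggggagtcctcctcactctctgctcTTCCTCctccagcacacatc
Prtn3: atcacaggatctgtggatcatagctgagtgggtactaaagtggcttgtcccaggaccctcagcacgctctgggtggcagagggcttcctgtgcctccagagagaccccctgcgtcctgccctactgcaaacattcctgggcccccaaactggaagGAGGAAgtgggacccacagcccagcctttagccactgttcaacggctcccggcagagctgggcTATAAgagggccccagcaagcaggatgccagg
The S100a8 stretch held 1 C/EBP match, 2 PU.1 matches and 1 TATAA, which began 30 bases before the start. The S100a9 stretch held 2 C/EBP matches and neither of the others, Lcn2 held 1 C/EBP and 1 PU.1 match, and Prtn3 held 1 PU.1 match and 1 TATAA. Among 27025 promoters of the same length, 36.9% held the C/EBP letters, 23.1% the PU.1 letters and 16.7% TATAA, so these matches are common and describe only the letters. The GENCODE M21 genes of S100a8, Lcn2 and Prtn3 begin farther upstream than the RefSeq starts used here. By those coordinates the S100a8 stretch overlaps its gene. The Lcn2 and Prtn3 stretches lie inside theirs (chr2:32384633-32388252 and chr10:79874476-79883174). No promoter of Wfdc21 or Serpinb10 is shown. Serpinb10 (chr1:107529003-107549271) is annotated as a polymorphic pseudogene in GENCODE M21.

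The libraries held 4814, 8109 and 5152 barcodes in control 1, control 3 and knockout 4, of which 4115, 7449 and 4457 passed the filters with medians of 8770, 8160 and 6865 UMIs. The knockout library was the shallowest per cell. Pairs of libraries shared 8, 2 and 19 barcodes among cells that passed, and 0 among the neutrophil-like cells. Doublets were not removed. Cells above 2 times their library's median UMI count, in which droplets with more than 1 cell may be found, made up 16.8%, 25.5% and 3.59% of the neutrophil-like cells but 7.25%, 9.77% and 2.32% of all other cells, so the controls held more of them, and the main genotype values are given with and without them. Commd10 itself stood at 17.7, 11.02 and 9.55 counts per 1000000 UMIs (CPM) in the neutrophil-like cells of control 1, control 3 and knockout 4, and the log2 difference of -0.57 ± 0.37 (SE) was not called (edgeR adjusted p = 0.594). Reads from the 3' end may come from exons that Cre leaves in place, so the level is no check of the genotype. Lyz2, the lysozyme gene whose locus carries Cre, stood at 17958, 13199 and 8932 CPM, a difference of -0.80 ± 0.22 that was not called either (edgeR adjusted p = 0.216).

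Most of the cells carried monocyte genes. Among the neutrophil-like cells of control 1, control 3 and knockout 4, the monocyte antigen gene Ly6c2 was detected in 96.9%, 98.2% and 96.9%, Ccr2 in 99.6%, 99.01% and 96.9%, and the macrophage growth factor receptor gene Csf1r in 95.4%, 93.7% and 89.5%. Among the other cells Ly6c2 was detected in 64.3%, 76.8% and 61.5%, Ccr2 in 90.8%, 90.8% and 85.2%, and Csf1r in 94.0%, 93.8% and 89.5%. Several genes that define maturing and mature neutrophils were at or near 0. Camp and Ngp, of the specific granules, had no UMI in any of the 1510 cells, Ly6g was seen in 0, 2 and 0 cells, Ltf in 2, 4 and 0 cells, and, of the 5 genes the rule excludes in pairs, Retnlg in 0, 0 and 1 cells and the chemokine receptor gene Cxcr2 in 3, 4 and 16. Camp and Ngp had no UMI in any other cell either, the neutrophils of these libraries included. Their absence therefore cannot tell the neutrophil-like cells from neutrophils here. Ly6g was seen in only 0.05%, 0.01% and 0% of the other cells. The receptor gene Csf3r for the granulocyte growth factor was common, in 53.2%, 62.3% and 41.7% of the neutrophil-like cells and in 34.6%, 43.0% and 27.4% of the others. Mpo, the myeloperoxidase gene that marks granulocyte progenitors, was seen in 4, 4 and 6 cells, and Elane, neutrophil elastase, in 35, 19 and 41 cells. T cell markers summed to 4.4, 0.5 and 0.5 CPM and NK cell markers to 0.3, 0.5 and 0.0 CPM.

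Free RNA in droplets can place an S100a8 UMI in a cell that does not express it. Lymphocytes carried along in the sort, taken as cells with at least 3 lymphocyte markers and no more than the median UMI count, gave a measure of it. At least 2 S100a8 UMIs were found in 0 of 23, 0 of 23 and 1 of 15 such cells (exact upper 95% bounds 14.8%, 14.8% and 31.9%), and none of them held 2 of the 4 other genes. S100a8 was detected at all in 1 of 23, 1 of 23 and 4 of 15 (exact upper 95% bounds 21.9%, 21.9% and 55.1%). Its level in them was 15.01, 14.56 and 112 CPM, highest in knockout 4, on few cells. How much free RNA added to the S100a8 counts of each library was not tested. These lymphocytes had median counts of 2553, 2524 and 2523 UMIs, far below the monocytes, so the comparison is not at matched depth. Among all other cells, 16.1%, 8.18% and 20.8% held at least 2 S100a8 UMIs without meeting the whole rule.

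The share of neutrophil-like cells was 11.2% in control 1 (459 of 4115 cells, exact Clopper-Pearson 95% interval 10.2 to 12.2%), 8.12% in control 3 (605 of 7449, 7.51 to 8.77%) and 10.0% in knockout 4 (446 of 4457, 9.14 to 10.9%). The knockout library lay between the controls. With 1 knockout library no test of the share was made, and the intervals cover counting error only. The order of the libraries changed with the settings. When cells were thinned to 3000 UMIs before the rule was applied, which left out 527, 713 and 757 shallower cells, the shares were 4.74%, 2.52% and 6.14%, and the knockout library was the highest. That setting changed both the depth and the set of cells. Without cells over 12000 UMIs the shares were 9.29%, 6.39% and 9.61%, again with the knockout library highest. It was the lowest when 3 of the 4 other genes were required, at 4.67%, 3.68% and 3.48%, and when 1 S100a8 UMI was enough, at 13%, 11.4% and 10.9%.

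**Figure D1:**
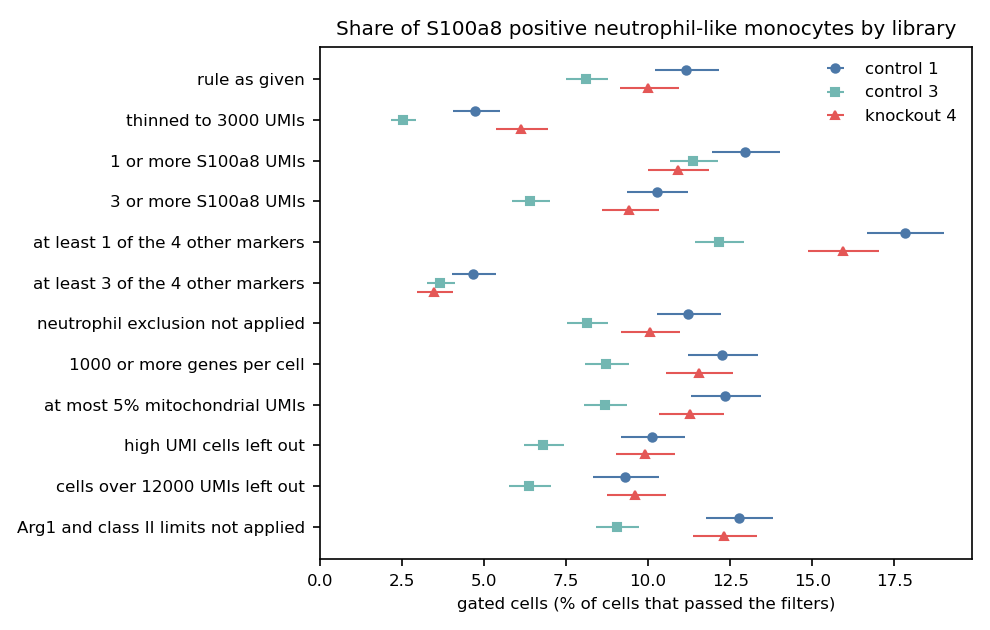
Share of neutrophil-like cells among cells that passed the filters (x axis, %) in each library, under the rule as given and under other settings (y axis). Points are shares and bars exact 95% intervals; control 3 was the lowest under the rule as given (8.12%), and knockout 4 was the highest after thinning (6.14%).

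The steps of the rule show which cells lay near its limits. At least 2 S100a8 UMIs were found in 1046, 1165 and 1282 cells of control 1, control 3 and knockout 4, and 2 or more of the 4 other genes in 529, 677 and 552 of those. The Arg1 limit then removed 52, 22 and 99 cells, the class II limit 16, 52 and 5, and the neutrophil genes 3, 2 and 2. Just inside the S100a8 limit, with exactly 2 UMIs, were 37, 127 and 26 cells, and just outside it, with 1 UMI, 74, 242 and 40. With exactly 2 of the 4 other genes there were 267, 331 and 291 cells, and with only 1 of them, outside the rule, 274, 301 and 264. The median cell held 11, 6 and 22 S100a8 UMIs, so the knockout cells lay farther from the limit and those of control 3 nearest to it.

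The 4 other genes were not detected equally. Lcn2 had a UMI in 94.3%, 92.2% and 97.5% of the neutrophil-like cells in control 1, control 3 and knockout 4. Prtn3 was found in 60.1%, 64.6% and 57.6%, and Wfdc21 in 68.0%, 46.0% and 63.0%. Serpinb10 was found in 28.1%, 53.9% and 22.2%, with control 3 higher than both other libraries. The pair of Lcn2 and Wfdc21 alone was carried by 138, 74 and 138 cells, the pair of Prtn3 and Lcn2 alone by 82, 129 and 112 cells, and all 4 genes by 40, 69 and 25 cells.

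Beyond the genes of the rule, the neutrophil-like cells were set beside all other cells of the same library. Because the rule chose these cells, the differences are a description with no test. On the scale of summed CPM, 31 of 7949 genes (0.39%) were over 2-fold higher in all 3 libraries and 55 (0.692%) were over 2-fold lower. Without cells of high UMI count these counts were 75 and 151, and with the rule applied to thinned cells 71 and 152. In either direction, without a limit on size, 30.7% of the genes were higher in all 3 libraries and 30% lower.

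The gene with the widest gap was S100a9, the partner of S100a8. It stood at 350, 110 and 1217 CPM in the neutrophil-like cells of control 1, control 3 and knockout 4, and at 29.1, 29.3 and 90.5 CPM in the other cells. Those other cells include 11, 8 and 10 neutrophils, and in the other monocyte-macrophage cells alone S100a9 stood at 8.26, 5.43 and 68.2 CPM (scaled by TMM factors). I830127L07Rik, a gene of unnamed function, followed with 315, 351 and 556 CPM against 78.8, 108 and 93.4 CPM. The collagenase gene Mmp8, whose protein is stored in neutrophil granules, stood at 171, 217 and 306 CPM against 70.2, 91.9 and 88.8 CPM. The granule antibacterial gene Pglyrp1 stood at 53.9, 83.8 and 56.5 CPM against 24.4, 39.3 and 22.3 CPM. The lists count genes that reached 10 CPM in the neutrophil-like or the other cells of any library. All 5 primary granule genes that did so, of 12 listed, were higher in all 3 libraries (median log2 difference 1.57). Among them were Fcnb (ficolin B) and Serpinb1a, an inhibitor of granule proteases. Fcnb stood at 21.9, 11.5 and 24.0 CPM, against 3.94, 2.94 and 3.28 CPM in the other monocyte-macrophage cells (scaled by TMM factors). A gene that reached the limit only in the neutrophil-like cells was bound to be higher in at least 1 library, so this count is no test. All 7 specific and gelatinase granule genes that reached the limit, of 16 listed with 3 genes of the rule, were higher as well (median 0.98). So were all 7 that reached it in the S100 family, of 10 listed with 1 gene of the rule (median 0.47). The remaining genes of these lists lay below the limit. All 6 genes of the NADPH oxidase, which makes superoxide, were higher too (median 0.25). Cebpe, the transcription factor of granule gene expression in neutrophils, was low at 20.4, 10.2 and 19.2 CPM against 8.1, 4.9 and 10.7 CPM.

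Genes of the young Ly6Chi monocyte were also high. Ly6c2 stood at 952, 1054 and 1484 CPM against 402, 548 and 461 CPM in the other cells, and the matrix proteoglycan gene Vcan at 308, 618 and 818 CPM against 124, 352 and 314 CPM. Haptoglobin (Hp), which binds free haemoglobin, stood at 938, 1221 and 1473 CPM against 449, 731 and 479 CPM. Of the 15 genes on the Ly6Chi monocyte list, 10 were higher in all 3 libraries and 2 were lower. Cell cycle genes were mixed: 6 of 11 were higher in all 3 libraries and 2 lower, and the proliferation marker Mki67 was detected in 4.36%, 4.96% and 4.48% of the neutrophil-like cells against 2.93%, 2.70% and 1.45% of the others. Early monocytes (36, 131 and 23 cells) were under the same limits, with no S100a8 UMI but a UMI of each of Prtn3, Serpinb1a and Ly6c2. Ly6c2 stood there at 1488, 1249 and 1400 CPM and Vcan at 331, 621 and 612 CPM. Hp stood at 1113, 1316 and 1287 CPM and I830127L07Rik at 391, 312 and 333 CPM. High levels of these 4 genes were thus not particular to the neutrophil-like cells. S100a9 was not shared, at 2.70, 0.70 and 0 CPM.

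Genes of tissue macrophages were low beside all other cells, which include the cells that the Arg1 and class II limits keep out. The invariant chain gene Cd74 of antigen presentation stood at 458, 586 and 134 CPM across control 1, control 3 and knockout 4, against 1917, 2614 and 2333 CPM in the other cells. Part of that gap is set by the rule, which caps class II genes. The complement gene C1qa stood at 64.7, 62.3 and 12.3 CPM against 270, 191 and 244 CPM, and the scavenger receptor gene Cd36 at 43.5, 18.5 and 21.6 CPM against 132, 65.1 and 236 CPM. Osteopontin (Spp1), a matrix protein of macrophages in injured tissue, stood at 298, 117 and 176 CPM against 745, 416 and 1237 CPM. All 14 genes of the lipid-associated macrophage list were lower in all 3 libraries (median log2 difference -1.08). So were 9 of the 10 macrophage genes that reached 10 CPM, of 15 listed (median -1.23). Of 22 cytokine and chemokine genes, 19 were lower in all 3 libraries and 1 was higher. Among those lower were Ccl24, a chemokine for eosinophils, at 102, 72.6 and 63.7 CPM against 353, 181 and 871 CPM, and Ccl7, a chemokine for monocytes, at 68.0, 66.3 and 88.8 CPM against 235, 170 and 376 CPM. These gaps were wider without cells of high UMI count. The median log2 difference over the libraries moved from -2.16 to -3.42 for Cd74, from -2.05 to -3.74 for C1qa and from -1.78 to -2.98 for Cd36.

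**Figure D2:**
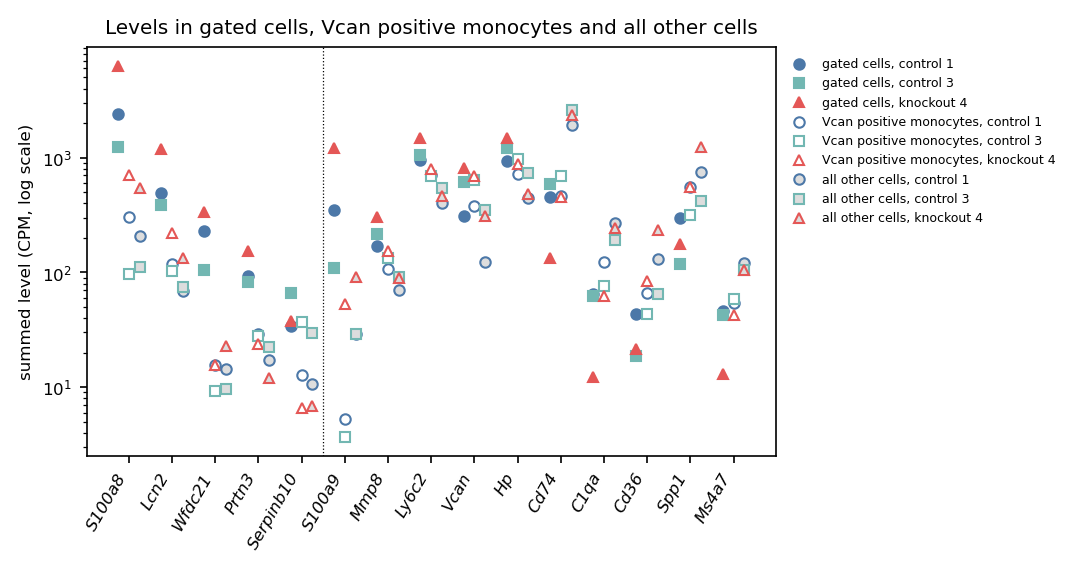
Summed levels of 15 genes (y axis, CPM on a log scale) in neutrophil-like cells (filled), Vcan positive monocytes (open) and all other cells (grey), 1 point per library; the 5 genes left of the dotted line chose the cells. S100a9 stood at 110 CPM or more in the neutrophil-like cells and at 53.0 CPM or less in Vcan positive monocytes.

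Vcan positive monocytes, taken as cells outside the rule with at least 2 Vcan UMIs and under the same Arg1, class II and neutrophil limits, were set beside them. When each library's cells were placed by their expression with the genes of the rule left out, 43.2%, 34.8% and 48.0% of the 15 nearest neighbours of a neutrophil-like cell were neutrophil-like, in libraries where such cells were 11.2%, 8.12% and 10.0% of all. Another 26%, 45.7% and 29.6% of the neighbours were Vcan positive monocytes, which made up 15.02%, 35.6% and 16.3% of the cells. Of the neighbours of early monocytes, 35.2%, 23.8% and 35.9% were neutrophil-like, and of those of Vcan positive monocytes 25.5%, 13.1% and 21.2%. The neutrophil-like cells thus lay together without forming a set of their own, and most of their neighbours came from outside the rule. S100a9 was low in Vcan positive monocytes, at 5.31, 3.65 and 53.0 CPM, while Ly6c2 reached 714, 693 and 800 CPM and Hp 726, 983 and 879 CPM. Macrophage genes were nearer to the neutrophil-like cells there than in all other cells. The log2 difference, neutrophil-like minus Vcan positive, was -0.03, -0.25 and -1.77 for Cd74. It was -0.94, -0.29 and -2.31 for C1qa and -0.61, -1.20 and -1.93 for Cd36. The low level of these genes was thus shared in part with Vcan positive monocytes, most of all in the controls.

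S100a9 was found mostly in the cells with the most S100a8. In cells with 2 to 4 S100a8 UMIs, an S100a9 UMI was found in 2.88%, 4.55% and 7.79% of cells of control 1, control 3 and knockout 4. With 20 to 49 S100a8 UMIs the share was 30.8%, 29.9% and 30.4%, and with 100 or more it was 93.9%, 100% and 93.5% (33, 18 and 62 cells). In each library the share was larger in every higher class of S100a8. The transcripts did not scale in a fixed ratio. The summed S100a8 UMIs were 102, 40.6 and 32.3 times those of S100a9 in cells with 2 to 4 S100a8 UMIs, and 3.60, 5.00 and 3.38 times in cells with 100 or more. Both genes lie on chromosome 3, S100a8 at chr3:90668978-90670035 and S100a9 at chr3:90692632-90695721.

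**Figure D3:**
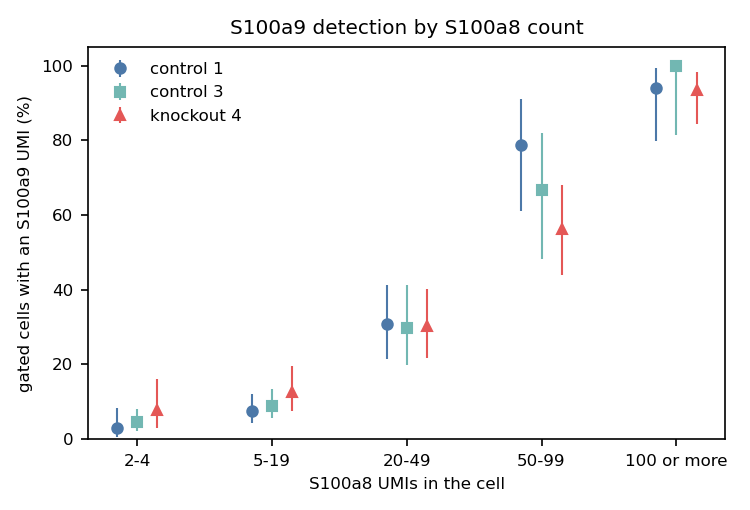
Share of neutrophil-like cells with at least 1 S100a9 UMI (y axis, %) by the number of S100a8 UMIs in the cell (x axis), 1 point per library with exact 95% intervals. The share lay between 2.88% and 7.79% in the lowest class and between 93.5% and 100% in the highest.

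Cells with at least 5 S100a9 UMIs numbered 44, 27 and 76, which is 9.59%, 4.46% and 17.0% of the neutrophil-like cells, and they held 95.5%, 86.9% and 96.9% of the S100a9 UMIs. They carried monocyte genes at levels near those of the rest. Their Ly6c2 level was 855, 1070 and 1356 CPM against 962, 1053 and 1509 CPM in the remaining neutrophil-like cells, and their Ccr2 level was 831, 1090 and 999 CPM against 963, 1120 and 1026 CPM. No UMI of Ly6g, Camp, Ngp or Ltf was found in them, but Camp and Ngp had none in any cell that passed the filters. Lcn2 was higher, at 1093, 1254 and 2790 CPM against 430, 344 and 896 CPM, and so was Wfdc21, at 610, 495 and 942 CPM against 189, 86.4 and 218 CPM. Pglyrp1 stood at 121, 174 and 134 CPM against 47.1, 79.5 and 41.8 CPM, and Cebpe at 50.2, 20.5 and 30.2 CPM against 17.4, 9.71 and 17.1 CPM. Mmp8 stood at 221, 251 and 428 CPM against 166, 215 and 283 CPM, and Il1r2, a decoy receptor for interleukin-1 found on neutrophils, at 9.30, 12.8 and 40.3 CPM against 3.93, 10.2 and 22.8 CPM. G0s2, a lipase inhibitor, was higher in control 1 and knockout 4 and lower in control 3, at 96.7, 7.70 and 53.7 CPM against 29.9, 12.5 and 16.8 CPM. Prtn3 did not follow: it stood at 85.5, 74.4 and 141 CPM against 94.8, 82.9 and 155 CPM. Csf3r was lower in control 1 and knockout 4 and higher in control 3, at 57.6, 103 and 62.1 CPM against 76.9, 90.3 and 70.3 CPM. Elane was mixed as well, at 9.30, 2.57 and 26.9 CPM against 8.23, 3.76 and 15.8 CPM. These cells were picked by a measured level, so the differences are given without a test.

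The neutrophil-like cells were also divided by Prtn3. Because Prtn3 is a gene of the rule, a cell without it had to carry 2 of Lcn2, Wfdc21 and Serpinb10, so the division is partly set by the rule. The pair of Lcn2 and Wfdc21 alone made up 138, 74 and 138 of the 183, 214 and 189 cells without it. In the 276, 391 and 257 cells with a Prtn3 UMI, Ly6c2 stood at 1100, 1157 and 1740 CPM, against 694, 844 and 1050 CPM in cells without one. Vcan stood at 340, 664 and 940 CPM against 253, 524 and 611 CPM, and the cyclin gene Ccnd3 at 194, 257 and 328 CPM against 127, 205 and 228 CPM. Cells without a Prtn3 UMI held more of the acute phase gene Saa3, at 246, 274 and 983 CPM against 153, 124 and 375 CPM. They also held more S100a9, at 418, 155 and 2050 CPM against 311, 87.8 and 728 CPM, and more of the cytokine gene Il1b, at 408, 563 and 378 CPM against 270, 417 and 211 CPM. Cells with a Prtn3 UMI were deeper, with medians of 10718, 10041 and 8823 UMIs against 9361, 9592.5 and 7263, and the parts of depth and of the rule in these differences were not tested.

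The comparison of genotypes set the knockout library beside the controls within these cells. All called genes that rose also rose in the other monocyte-macrophage cells, as given below. In the knockout library the interferon-induced membrane protein gene Ifitm1 and the acute phase gene Saa3 were higher, and the fractalkine receptor gene Cx3cr1, which rises as monocytes mature, was lower. Genes of macrophages and antigen presentation were also lower, and of these none was called without the cells of high UMI count, although every one kept its sign. Of 11142 genes tested on sums per library, 11132 lay outside the rule's own genes. Among those, 12 were higher (0.108%) and 9 were lower (0.0808%) in the knockout library (edgeR quasi-likelihood test, Benjamini-Hochberg adjusted p under 0.05). All levels in this comparison are CPM scaled by TMM factors, which adjust library totals for composition.

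Ifitm1 (chr7:140967221-140969825) stood at 31.2, 27.8 and 165 CPM across control 1, control 3 and knockout 4. It rose by 2.48 ± 0.18 on the log2 scale (SE, 2 control and 1 knockout libraries; edgeR adjusted p = 0.00626). Saa3 (chr7:46711998-46715700) stood at 186, 172 and 614 CPM, a rise of 1.78 ± 0.15 (adjusted p = 0.0084). Cx3cr1 (chr9:119901616-120069879) stood at 259, 240 and 45.6 CPM and fell by 2.45 ± 0.19 (adjusted p = 0.00626). The controls lay close together for all 3 genes, and the knockout library lay outside them. These 3 genes also passed without the cells above 2 times the median UMI count (2.53 for Ifitm1, 1.51 for Saa3, -2.09 for Cx3cr1), and the protease gene Adam8, which sheds surface proteins, did so too (1.32 with all cells, 1.57 without).

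The other genes that rose were of several kinds. The neutrophil chemokine gene Cxcl3 (chr5:90786103-90789600) stood at 2.02, 3.44 and 24.8 CPM across control 1, control 3 and knockout 4, and rose by 3.13 ± 0.33. The small GTPase gene Rhov stood at 2.53, 5.97 and 39.8 CPM and rose by 3.16 ± 0.37. The glucose transporter gene Slc2a1 rose from 48.1 and 40.6 CPM to 119 CPM, and the hypoxia-induced gene Ankrd37 from 50.3 and 35.9 CPM to 128 CPM. Met, the receptor for hepatocyte growth factor, rose from 15.01 and 16.8 CPM to 45.6 CPM. Dmkn, Igfbp6, which encodes a binding protein for insulin-like growth factors, Uck2, a uridine-cytidine kinase, and Rgcc, a cell cycle regulator, rose by between 1.40 and 1.75. In the other monocyte-macrophage cells Ifitm1 rose by 1.93, Adam8 by 1.52, Slc2a1 by 1.66, Ankrd37 by 1.58, Met by 1.57 and Rgcc by 1.79. The difference between the kinds of cell, tested further on, was not called for Adam8, Slc2a1, Ankrd37, Met and Rgcc (-0.20, -0.21, 0.04, -0.04 and -0.22). Saa3 (0.76), Dmkn (1.03), Igfbp6 (1.03), Uck2 (0.75) and Rhov (1.89) rose less in those other cells, and Cx3cr1 fell there by 1.02. The haem oxygenase gene Hmox1 stood at 578, 748 and 1460 CPM and did not pass with all cells (edgeR adjusted p = 0.0628), but passed without the cells of high UMI count (1.62, adjusted p = 0.0227).

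Among the genes that fell were the 3 chains of complement C1q. C1qa stood at 64.3, 61.7 and 12.6 CPM across control 1, control 3 and knockout 4 (-2.32 ± 0.22), C1qb at 163, 146 and 48.0 CPM (-1.68 ± 0.19) and C1qc at 60.7, 55.2 and 14.7 CPM (-1.97 ± 0.22). Cd74 stood at 455, 581 and 137 CPM (-1.92 ± 0.21). Axl, a receptor for dead cells, fell by 2.67 ± 0.31, and the lipid carrier Apoe by 1.78 ± 0.22. The membrane protein gene Ms4a7 and the chemokine Cxcl16 fell by 1.71 ± 0.22 and 1.79 ± 0.25.

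In the controls, the level of C1qa was higher in cells of high UMI count. It stood at 137 CPM in the 77 such cells of control 1 and at 24.1 CPM in its other 382 neutrophil-like cells. It stood at 109 and 12.9 CPM in the 154 and 451 cells of control 3, and at 31.5 and 10.9 CPM in the 16 and 430 cells of knockout 4. The same cells of the controls held less Ly6c2, at 595 against 1152 CPM in control 1 and 692 against 1440 CPM in control 3. Without them, the log2 change of C1qa was -0.73, that of C1qb -0.50, that of C1qc -0.66, that of Ms4a7 -0.87 and that of Cxcl16 -0.72. Cd74 came to -1.09, Apoe to -1.13 and Axl to -2.33. None of these 8 genes passed without the cells of high UMI count (edgeR). Of the 21 called genes, 4 were called without the cells of high UMI count, and all 21 kept their sign. With a cap of 12000 UMIs in every library, edgeR called 0 of 9946 genes (802 had an unadjusted p under 0.05), Ifitm1, Adam8 and Cx3cr1 each came to an adjusted p of 0.0567, and C1qa came to -0.08. DESeq2, run with all cells, called 27 genes higher and 28 lower and shared 20 of the 21; the count with the cap was not run with it.

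**Figure D4:**
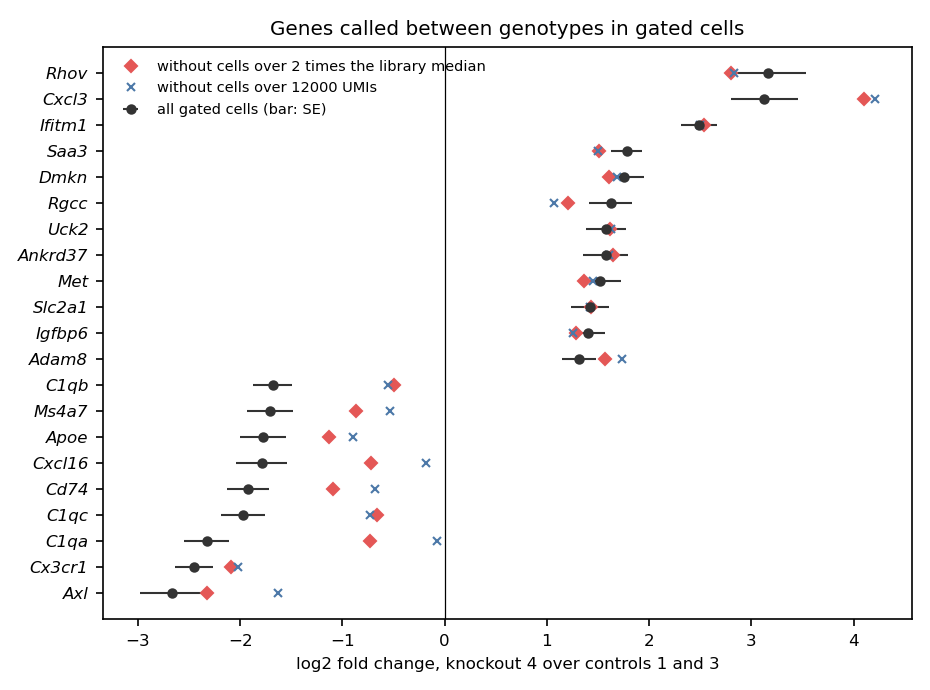
Log2 fold change of knockout 4 over the controls (x axis) for the 21 called genes (y axis) with all neutrophil-like cells (circles with SE bars), without cells above 2 times their library's median UMI count (diamonds), and without cells above 12000 UMIs (crosses). Cx3cr1 moved from -2.45 to -2.09 and -2.02, and C1qa from -2.32 to -0.73 and -0.08.

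The level of S100a8 also differed between the libraries, and the genotype difference was read within classes of it. Cells with 20 or more S100a8 UMIs were 34.2%, 21.2% and 52.7% of the neutrophil-like cells in control 1, control 3 and knockout 4. Within those cells Cx3cr1 stood at 199, 214 and 40.2 CPM, and in cells with 2 to 4 S100a8 UMIs at 328, 240 and 62.7 CPM. Ifitm1 stood at 28.3, 28.2 and 168 CPM in the first and 37.6, 23.2 and 157 CPM in the second. In both classes the knockout library lay outside the controls. Cxcl3 differed by class: it stood at 2.9, 1.0 and 31.5 CPM with 20 or more S100a8 UMIs, and at 1.5, 7.5 and 6.0 CPM with 2 to 4.

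The genes that chose the cells get no call between genotypes, since the rule sets a floor under them. S100a8 stood at 2368, 1229 and 6500 CPM across control 1, control 3 and knockout 4, Lcn2 at 487, 381 and 1225 CPM, Wfdc21 at 226, 104 and 341 CPM and Prtn3 at 93.3, 81.7 and 156 CPM. The knockout library was highest in all 4 of them. Serpinb10, at 33.7, 65.6 and 38.5 CPM, lay between the controls. S100a9 stood at 347, 109 and 1246 CPM, and its log2 difference of 2.45 ± 0.50 did not pass (edgeR adjusted p = 0.103), with the controls themselves far apart.

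The lists of related genes are described by how many of their tested members lay outside both controls, beside 36.2% of all genes above and 39.2% below. Of 24 glycolysis and hypoxia genes, 20 lay above both controls and 1 below (median log2 difference 0.48), and 2 passed. The controls also differed on this list, with control 3 below control 1 by a median of 0.45. All 7 S100 genes outside the rule and 7 of 8 primary granule genes lay above both controls, and none passed. Some of these granule genes lay near the floor, with Mpo at 0.67, 0.46 and 1.91 CPM and Ctsg at 2.87, 1.26 and 3.82 CPM. On the primary granule list control 3 lay below control 1 by a median of 0.54. All 4 Ifitm genes lay above both controls, and Ifitm1 passed. Of 20 cell cycle genes 16 lay above and 2 below, none passed, and the controls differed by a median of 0.70. Of 10 macrophage genes 9 lay below both controls and 6 passed, and of 7 class II and dendritic cell genes outside the rule 6 lay below and 1 passed. All 10 genes of patrolling monocytes, which crawl along vessels, lay below both controls, and none passed. Their nearest to the threshold was the angiotensin-converting enzyme gene Ace, at 37.9, 38.0 and 15.8 CPM (-1.26 ± 0.22, edgeR adjusted p = 0.0692), which came to -0.47 with the cap of 12000 UMIs. These lists overlap and were chosen with earlier results of these data known, so they are not independent evidence.

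Of the genes known from an earlier comparison of all monocytes in these libraries, 11 of 12 lay above both controls in the neutrophil-like cells, and 4 passed. That comparison included these same cells. Among those, Sdc1, a heparan sulfate proteoglycan, stood at 2.87, 2.18 and 14.2 CPM (2.51 ± 0.36, edgeR adjusted p = 0.0525), and Hilpda, a lipid droplet protein induced by hypoxia, at 17.7, 10.6 and 49.9 CPM (1.84 ± 0.29, adjusted p = 0.0628).

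Whether the knockout effect differed between the neutrophil-like cells and the other monocyte-macrophage cells was tested as an interaction, with each library as a block. The fold change was higher in the neutrophil-like cells for 538 of 13534 genes outside the rule (3.98%) and lower for 612 (4.52%). The fit moderated the spread fully toward its trend (infinite prior degrees of freedom), so a gene whose controls vary more than the trend gets too small a p. Hbb-bs, a haemoglobin gene at 134, 0.92 and 1.37 CPM, and Lyz1, at 3.71, 201 and 16.4 CPM, were called on controls that lay far apart. The counts also fell with the cells compared: with Vcan positive monocytes as the other cells and those of high UMI count left out, 21 genes were higher and 21 lower.

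Among genes with a higher fold change in the neutrophil-like cells, the interferon-induced chemokine gene Cxcl10 stood at 66.2, 71.4 and 122 CPM across control 1, control 3 and knockout 4, and at 101, 110 and 83.7 CPM in the other cells. Its log2 change was 0.82 in the former and -0.34 in the latter, a difference of 1.17 ± 0.10. Ifitm6, a myeloid member of the interferon-induced membrane protein family, stood at 419, 563 and 720 CPM against 186, 348 and 203 CPM, a difference of 0.91 ± 0.09. Both kept the call against Vcan positive monocytes without cells of high UMI count (1.21 and 0.45, adjusted p = 7.53e-08 and 0.0273 with edgeR). Saa3 changed by 1.78 in the neutrophil-like cells and 0.76 in the others, and Anxa1, an annexin that restrains inflammation, by 0.81 and -0.03. Both lost the call under that setting, with differences of 0.30 and 0.28.

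Among genes with a lower fold change in the neutrophil-like cells, Cd74 changed by -1.92 there and by 0.09 in the others, where it stood at 1855, 2600 and 2369 CPM. Apoe changed by -1.78 and -0.15, and Lpl, a lipase gene, by -3.71 and -0.95. These 3 kept the call against Vcan positive monocytes without cells of high UMI count (-1.08, -0.52 and -1.59), and C1qa, C1qb and C1qc lost it (-0.68, -0.44 and -0.63). Ccl24 changed by -0.41 and 1.75, Spp1 by -0.20 and 1.14, and the platelet chemokine gene Pf4 by -1.19 and 1.33. For Ccl24 and Spp1 the sign of the difference turned under that setting (0.24 and 0.19), and Pf4 lost the call (-0.86, edgeR adjusted p = 0.162). With the other cells held to the same Arg1 and class II limits, the differences shrank from -2.21 to -1.04 for Ccl24, from -1.26 to -0.47 for Spp1 and from -2.65 to -1.25 for Pf4, and all 3 passed. Cxcl3 rose in both kinds of cell, by 2.97 in the neutrophil-like cells and by 4.40 in the others, a difference of -1.39 ± 0.25 (edgeR adjusted p = 9.48e-05). In the other cells it stood at 11.8, 9.11 and 230.1 CPM. That difference was not called without cells of high UMI count (-0.25, edgeR adjusted p = 0.925), and against Vcan positive monocytes without them its sign turned (0.68, adjusted p = 0.889).

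**Figure D5:**
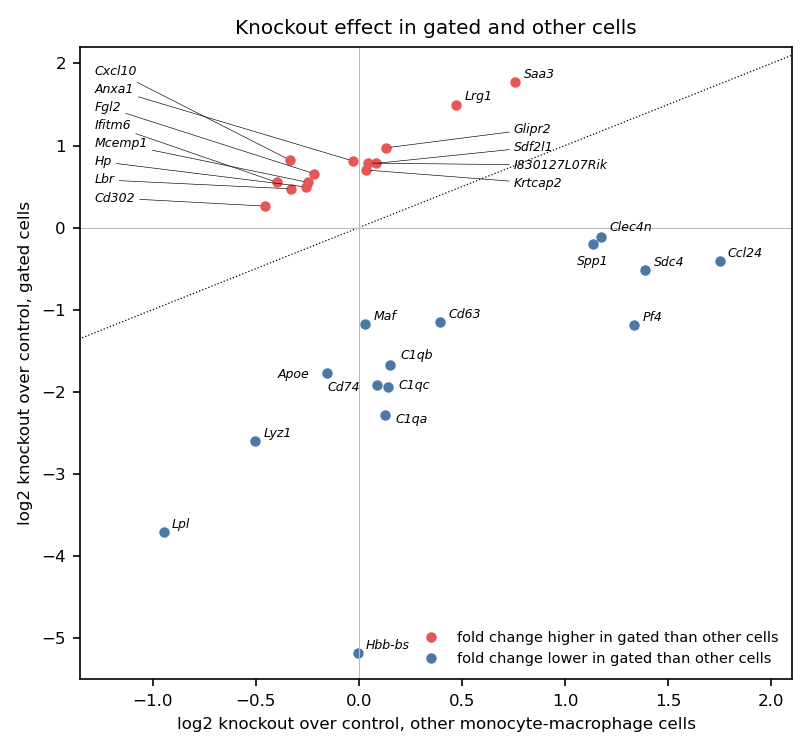
Log2 fold change of knockout 4 over the controls in the other monocyte-macrophage cells (x axis) and in neutrophil-like cells (y axis) for 29 named genes, 14 with a higher change in the neutrophil-like cells and 15 with a lower one; the dotted line marks equal changes. Saa3 lies at 0.76 and 1.78, Ccl24 at 1.75 and -0.41, and Cd74 at 0.09 and -1.92.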

How the data were processed

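Droplet single-cell 3' libraries were deposited as raw UMI counts per gene and barcode, which the authors made with bcl2fastq and Cell Ranger 3.0.2 on GRCm38, per the submitters' processing notes. The study states 4860, 8149 and 5229 cells for control 1, control 3 and knockout 4. The members and lists were chosen with earlier results of these data known. No doublet caller was run. Counts were summed per library and tested with edgeR 4.0.16 (R 4.3.3): TMM, filterByExpr, glmQLFit and two-sided glmQLFTest, with 1 residual degree of freedom, prior degrees of freedom 7.00 and a common biological coefficient of variation of 14.2%. The single knockout library is taken to vary as the controls do. Tested on simulated counts of the knockout comparison (11142 genes, 200 of them changed, 5 runs), the fit called 59.8% at a log2 change of 1 and 99.8% at 2, with 4.55% false calls. Only genes above 20 CPM in the controls were changed, and the counts were drawn with the fit's own spread. The simulation held no unequal share of cells of high UMI count, so its false calls do not cover that difference between the libraries. DESeq2 1.42.0 and limma 3.58.1 were alternatives. Named genes were the 15 of smallest p in each direction, the 25 of highest and 15 of lowest ratio to other cells at 50 CPM or more, up to 4 members of each list by smallest p, the genes of the rule, Commd10 and Lyz2; other genes were named after their values were seen, and 1 gene is not reported here. Descriptive log2 differences used a pseudocount of 0.5 CPM. Neighbours were taken on 30 principal components of 2000 variable genes. Coordinates are from GENCODE M21.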

Additional observations from a re-analysis of the deposited data

Results flagged for a closer look

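The knockout effect differed between the neutrophil-like cells and the other monocyte-macrophage cells, by the interaction test, for 29 named genes. Values are the log2 fold change in the neutrophil-like cells minus that in the others. Among the higher ones were the interferon-induced genes Cxcl10 at 1.17 and Ifitm6 at 0.91, and Saa3 at 1.03, Lrg1 at 0.98 and Hp at 0.72. Outside the 29, some other chemokine genes were lower. Cxcl16 was at -1.59, Cxcl3 at -1.39, Ccl4 at -0.96, Cxcl2 at -0.95, Ccl3 at -0.83 and Ccl9 at -0.72. Not all chemokine genes followed. Ccl2 rose by 0.77 in the neutrophil-like cells and by 0.83 in the others. Cxcl9, at 1.18, 7.23 and 2.73 CPM in the neutrophil-like cells, fell by 0.71 there and by 4.90 in the others. Without cells of high UMI count Cxcl16 came to -0.49 and Cxcl3 to -0.25, and the counts of the 29 given below do not cover these chemokine genes. Further higher ones of the 29 were Anxa1 at 0.84, Fgl2 at 0.88, Mcemp1 at 0.74, Cd302 at 0.72, Glipr2 at 0.85 and I830127L07Rik at 0.74. Lbr of the nuclear envelope was at 0.81, Sdf2l1 of the endoplasmic reticulum at 0.71 and Krtcap2 at 0.67.

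Among the lower ones, complement genes were at -2.49 (C1qa), -1.85 (C1qb) and -2.15 (C1qc), and Cd74 at -2.02. Lipid genes were at -2.84 (Lpl) and -1.63 (Apoe). Ccl24 was at -2.21, Pf4 at -2.65, Spp1 at -1.26, Sdc4 at -1.94, Clec4n at -1.30, Cd63 at -1.58 and the transcription factor gene Maf at -1.20. Hbb-bs at -5.52 and Lyz1 at -2.11 were called although the controls differed widely. Of the 29, 24 were called without cells of high UMI count, 27 against Vcan positive monocytes, and 7 with both changes together (Cxcl10, Ifitm6, Apoe, Lpl, Cd74, Hbb-bs and Lyz1). Hbb-bs and Lyz1 are the 2 of these whose controls differed widely.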

How the results depend on the processing

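Alternatives with the Arg1 and class II limits off, the 12000 UMI cap, other comparison cells and limma voom were chosen after seeing the data. Shares below are for control 1, control 3 and knockout 4 in that order. Thinning gave 4.74%, 2.52% and 6.14%, at least 1 of the 4 other genes 17.8%, 12.2% and 15.9%, at least 3 of them 4.67%, 3.68% and 3.48%, and no Arg1 or class II limits 12.8%, 9.06% and 12.3%. At least 1 S100a8 UMI gave 13%, 11.4% and 10.9%, and at least 3 gave 10.3%, 6.42% and 9.42%. At least 1000 genes gave 12.3% in control 1 and 11.5% in knockout 4, and at most 5% mitochondrial UMIs gave 12.3% and 11.3%. Without cells of high UMI count the shares were 10.1%, 6.81% and 9.89%, and under the 12000 UMI cap 9.29%, 6.39% and 9.61%.

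Genes called between genotypes numbered 42 higher and 51 lower with library totals, 201 and 250 with no filter, 120 and 69 after thinning, 65 and 57 with 3 of the 4 genes, 47 and 43 with 3 S100a8 UMIs, and 27 and 28 with DESeq2. They numbered 5 and 1 without cells of high UMI count, 0 and 0 under the cap by edgeR (802 with an unadjusted p under 0.05), and 19 higher without the Arg1 and class II limits. All 21 called genes kept their sign in these settings. Without either control, 1 library stood against 1, and values were given with no test.

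Interaction calls numbered 198 higher and 382 lower with 3 of the 4 genes, 92 and 97 without cells of high UMI count, 293 and 345 with other cells under the same limits, 79 and 138 against Vcan positive monocytes, 323 and 281 with limma voom, and 21 and 21 against Vcan positive monocytes without cells of high UMI count. In the last setting Ccl24 turned to 0.24 and Spp1 to 0.19, and Hbb-bs turned to 2.81 with 3 of the 4 genes. The cause was not tested.

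Genes over 2-fold higher than in other cells numbered 75 without cells of high UMI count and 71 with the rule on thinned cells, and those over 2-fold lower 151 and 152. Leaving out 1 library each gave between 32 and 58 higher and between 60 and 84 lower, with 58 higher without control 3 and 84 lower without control 1. Fewer libraries must then agree. No paired analysis was possible because the groups share no replicate numbers (1 and 3 against 4).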

Other observations

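Other gene groups of the neutrophil-like cells were described without a test, beside all other cells of each library. Of all 7949 genes, 30.7% were higher in all 3 libraries and 30% were lower. Of 21 type I interferon response genes, 14 were lower in all 3 libraries and 2 higher (median log2 difference -0.35), while 3 of 4 Ifitm genes were higher (median 0.37). Of 24 glycolysis and hypoxia genes, 14 were lower and 0 higher. Pattern recognition and formyl peptide receptor genes were divided, with 4 of 16 higher and 6 lower, near the shares of all genes. Of 9 patrolling monocyte genes, 6 were lower and 2 higher. Summed platelet markers stood at 25.8, 66.5 and 21.3 CPM against 192, 140 and 428 CPM in the other cells of control 1, control 3 and knockout 4, and summed hepatocyte markers at 20.4, 66.5 and 13.9 CPM against 40.9, 103 and 53.8 CPM.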
